A study of Mus musculus with 48 samples.

Results

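The genes followed here are a short list of 10 mouse genes drawn from the growth control network and fetal liver: the imprinted growth genes Mest, Igf2, H19, Dlk1, Peg3, Plagl1, Cdkn1c and Grb10, together with Gpc3 and Afp, which are known from fetal liver. Each gene was read on the probe set that carries its symbol alone and has the highest mean over all 48 arrays. Of the 10 genes, 9 had such a probe set, 1 apiece, among 19938 genes with a single-symbol probe set. H19 had none in the probe annotation and has no value here. All 9 measured genes lay among the 13542 genes whose mean log2 value reached the 40th percentile of all probe sets (5.46), and the tests below were adjusted over these 13542 genes. The filter is no call of presence or absence, and Afp, with a mean of 5.86 over the arrays, lay nearest to it.

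The samples were median liver lobes of F1 mice aged 3 weeks, male or female, whose sires had eaten either a low protein diet (LPD) or a control diet (CD) from 3 to 12 weeks of age. Total RNA of each liver was hybridised to an Affymetrix gene array after biotin labelling. The 6 groups of 8 arrays were ATF7+/- offspring of low-protein sires (ATF7+/-_LPD) and of control-diet sires (ATF7+/-_CD), ATF7+/+ offspring of low-protein sires (ATF7+/+_LPD) and of control-diet sires (ATF7+/+_CD), and wild-type offspring of low-protein sires (WT_LPD) and of control-diet sires (WT_CD). ATF7 belongs to the ATF2 family of transcription factors, responds to stress and can repress its targets through chromatin. The labels do not state how ATF7+/+ offspring differ from wild-type offspring, nor the strain, the sex of each animal, the genotype of the sires or the part of Atf7 that is altered. The diet comparisons ask whether liver transcripts of offspring vary with what their sires ate, and whether they do so differently between the genotype labels.

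Imprinted genes are read from only 1 of the 2 parental copies, which the germ lines mark by DNA methylation. Mest, Igf2, Dlk1, Peg3 and Plagl1 are read from the paternal copy, and H19, Cdkn1c and, outside the brain, Grb10 from the maternal one. Many of them act on body growth: Igf2 is a fetal growth factor, Grb10 damps signalling from the insulin and IGF receptors, Cdkn1c inhibits cyclin-dependent kinases and Plagl1 is a zinc finger factor that regulates other members of the network. Together with the X-linked proteoglycan gene Gpc3 and the fetal serum protein gene Afp, they are high in fetal liver and decline after birth; in mouse liver the factor Zhx2 takes part in the postnatal decline of Afp, Gpc3 and H19.

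The sequences before the transcription starts are shown for Mest and Gpc3, the members whose levels passed the test, and for Afp, the classical fetal liver gene whose difference did not. Each line gives 250 bases that end just before a start, taken on the strand of the gene in the direction of transcription, from RefSeq on GRCm38.p6. Capitals mark CG dinucleotides, the core GTTAAT of the site of the liver factor HNF1 on either strand, and the TATA box TATAAA on either strand. Where a gene has several start windows, the one with the most CG dinucleotides is shown.
Mest, chr6:30737800-30738049, plus strand: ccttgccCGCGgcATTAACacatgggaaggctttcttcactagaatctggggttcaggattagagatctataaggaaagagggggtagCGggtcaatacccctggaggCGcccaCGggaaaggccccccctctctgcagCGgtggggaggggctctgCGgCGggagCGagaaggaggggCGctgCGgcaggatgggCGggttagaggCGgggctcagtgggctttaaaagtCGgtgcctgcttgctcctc
Gpc3, chrX:52613975-52614224, minus strand: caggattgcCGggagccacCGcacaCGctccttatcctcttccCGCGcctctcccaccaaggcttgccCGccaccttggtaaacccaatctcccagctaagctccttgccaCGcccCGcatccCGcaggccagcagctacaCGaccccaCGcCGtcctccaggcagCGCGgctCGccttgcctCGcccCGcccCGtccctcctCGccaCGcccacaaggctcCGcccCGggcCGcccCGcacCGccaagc
Afp, chr5:90490464-90490713, plus strand: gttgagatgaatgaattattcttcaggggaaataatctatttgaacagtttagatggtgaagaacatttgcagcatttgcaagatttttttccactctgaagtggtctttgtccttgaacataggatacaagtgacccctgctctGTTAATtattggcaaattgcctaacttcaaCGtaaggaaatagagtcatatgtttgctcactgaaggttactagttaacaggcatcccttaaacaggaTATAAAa
The Mest and Gpc3 stretches hold 14 and 25 CG dinucleotides and no TATAAA, and the Afp stretch holds 1 CG dinucleotide and a TATAAA near its end. GTTAAT occurs once in the Mest stretch, on the opposite strand, and once in the Afp stretch. In the full RefSeq windows, which run on for 50 bases past the start, the CG counts are 17 for Mest, 30 for Gpc3 and 3 for Afp, against a median of 7 over 32851 windows of the same length. Of those windows 7.1% hold GTTAAT and 13.62% hold TATAAA. RefSeq lists 3 start windows for Mest, and the most upstream of them holds 8 CG dinucleotides and neither motif. These matches describe the letters alone: the arrays measure neither methylation nor binding, and the probe sets do not say which start was used.

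Every level given here is the log2 value that the authors deposited for a probe set after RMA. Array medians ranged from 5.89 to 6.12 on that scale, and precision is limited by how many arrays there are. Replicates 4 and 5 of WT_CD, and replicates 7 and 8 of ATF7+/+_CD, differed from each other by less than any of the 76 other pairs compared, and each pair was counted as 1 sample, which left 7 samples in those groups and 8 in the others. Sets of arrays that no label names stood apart on probe sets without a listed gene: set A with 18 arrays, 3 in each group, and set B with 30, 5 in each group. The 6 measured hepatocyte markers averaged log2 12.05 to 13.51 over the samples. Atf7 itself, on its probe set with the highest mean, was lower in ATF7+/-_CD than in ATF7+/+_CD by a log2 difference of -0.40 that did not pass (limma, adjusted p = 0.0788). On the mean of both Atf7 probe sets it was -0.70 (adjusted p = 9.6e-05). Against wild-type, the probe set with the highest mean had -0.26 in ATF7+/-_CD (adjusted p = 0.0956) and -0.14 in ATF7+/-_LPD, and neither passed. The spread that p-values measure is that between these samples, which may be technical; the 8 arrays of a group are described as independent experiments, but whether litters or sires were shared is not told.

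In wild-type offspring, Mest and Gpc3 were higher in the livers of animals sired by low-protein fathers, about 2-fold each, and no member was lower. Of the 9 measured members 2 passed the test, both higher, beside 377 of all 13542 genes (2.78%) that passed higher and 110 (0.812%) that passed lower, 3.6% in all. The median log2 difference of the 9 members was 0.35, against 0.00 over all genes tested. Of the 9 differences, 8 were positive, and 6 had an unadjusted p under 0.05, as did 2153 of the 13542 genes. In bulk tissue, fewer cells of a type and less RNA per cell cannot be told apart.

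Mest, an alpha/beta hydrolase gene of the mesoderm, had a lowest, median and highest log2 level of 7.44, 7.72 and 8.31 in WT_LPD, against 5.88, 6.73 and 7.49 in WT_CD. Of the 8 WT_LPD samples, 7 lay above every WT_CD sample; only WT_CD replicate 3, at 7.49, reached into the WT_LPD range. Mest averaged 7.80 ± 0.29 in WT_LPD (SD, n = 8) and 6.73 ± 0.48 in WT_CD (SD, n = 7), a log2 difference of 1.07 ± 0.20 (SE) or 2.10-fold (limma, adjusted p = 0.000801), which ranked Mest 51st of all genes by p.

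Gpc3, a glypican on the cell surface that binds growth factors and restrains growth, ran from 8.05 over a median of 8.93 to 9.48 in WT_LPD, against 6.81, 7.75 and 8.06 in WT_CD. Again 7 of the 8 WT_LPD samples lay above every WT_CD sample, and the lowest, replicate 3 at 8.05, met the top of the WT_CD range. The means were 8.90 ± 0.48 in WT_LPD (SD, n = 8) and 7.67 ± 0.42 in WT_CD (SD, n = 7), a log2 difference of 1.23 ± 0.33 (SE) or 2.35-fold (limma, adjusted p = 0.0224). The Gpc3 call was lost on leaving out WT_CD replicate 3 (adjusted p = 0.0545) and with array weights (adjusted p = 0.0596).

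Igf2, the growth factor itself, lay between 6.04 and 7.02 (median 6.64) in WT_LPD, against 6.10 to 6.43 (median 6.32) in WT_CD. Of the 8 WT_LPD samples 7 exceeded all WT_CD samples and the remaining sample, replicate 3, fell below all of them. The log2 difference of 0.35 ± 0.15 (SE) did not pass (adjusted p = 0.214). Replicate 3 was also the lowest WT_LPD sample for Gpc3, Grb10 and Cdkn1c, but the highest for Afp (6.40) and Dlk1 (7.20).

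Grb10 lay between 7.21 and 8.21 (median 8.01) in WT_LPD, against 7.10 to 7.77 (median 7.42) in WT_CD, with 6 of 8 WT_LPD samples above the whole WT_CD range. Its log2 difference of 0.41 ± 0.14 (SE) did not pass (adjusted p = 0.102), but passed without WT_LPD replicate 3 (adjusted p = 0.0310). Afp lay between 5.83 and 6.40 (median 6.08) in WT_LPD, against 5.30 to 6.35 (median 5.58) in WT_CD. All 8 WT_LPD samples exceeded the WT_CD median, while WT_CD replicates 1, 2 and 7 lay within the WT_LPD range. The log2 difference of 0.37 ± 0.12 (SE) had an adjusted p of 0.0800, and passed without WT_CD replicate 2 (adjusted p = 0.0127) or replicate 7 (0.0441).

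The remaining members showed smaller differences. Plagl1 had a log2 difference of 0.29 ± 0.12 (SE, adjusted p = 0.223), and all 8 WT_LPD samples lay above the WT_CD median. Dlk1, a Notch-related membrane protein of fetal hepatoblasts and preadipocytes, differed by 0.11 ± 0.08, and Cdkn1c by 0.07 ± 0.07 (adjusted p = 0.577 and 0.727). Peg3, a zinc finger gene that acts on growth and maternal care, was the only member with a negative value, -0.17 ± 0.26 (adjusted p = 0.834). No member separated the diets completely in wild-type offspring, which 0.561% of all genes did.

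**Figure D1:**
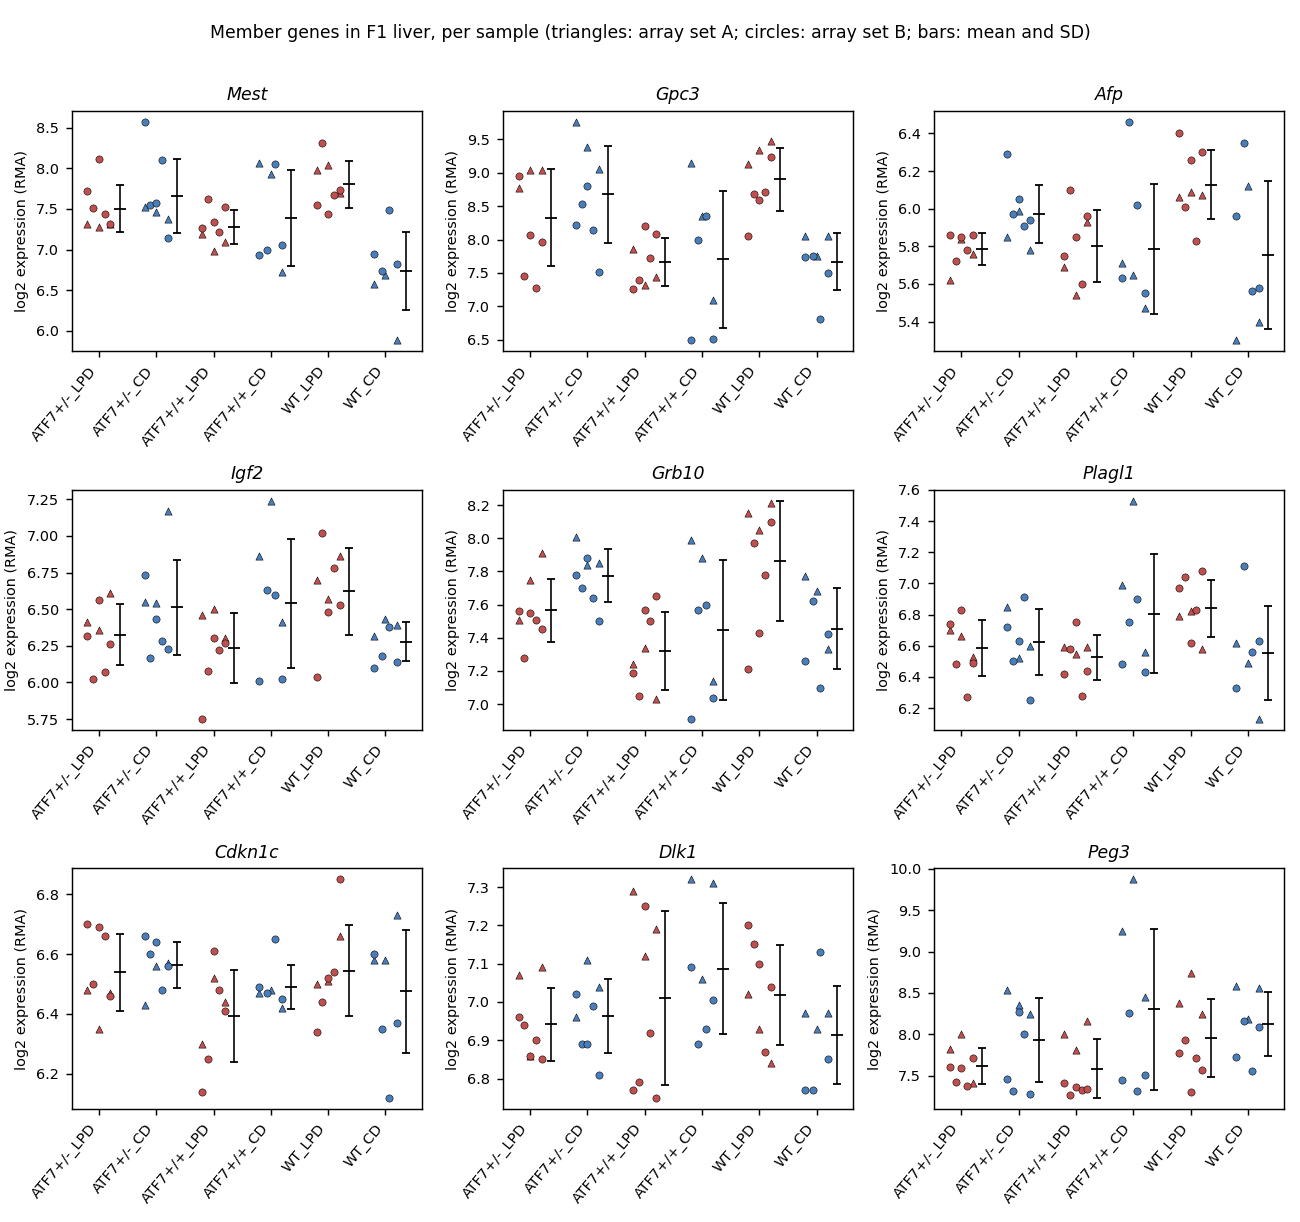
Log2 level of each measured member in every sample, with groups in columns from ATF7+/-_LPD on the left to WT_CD on the right, red for LPD and blue for CD; triangles are samples of array set A, circles of set B, and bars give the mean and SD. In the Mest panel WT_CD is the lowest group, with a mean of 6.73 against 7.80 in WT_LPD; in the Gpc3 panel WT_CD averages 7.67 and WT_LPD 8.90.

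The array sets bear on these values. Peg3 was higher in set A than in set B in 6 of 6 groups (median log2 difference 0.68, from 0.20 to 1.56), Igf2 in 6 of 6 (median 0.26) and Gpc3 in 5 of 6 (median 0.76), while Afp was lower in set A in all 6 groups (median -0.15). Mest was higher in set A in 2 of 6 groups. With the array set as a block, 4 members passed in the wild-type diet comparison, all higher, where 1254 genes passed in all: Mest (1.06, adjusted p = 0.000300), Gpc3 (1.27, adjusted p = 0.00213), Grb10 (0.42, adjusted p = 0.0317) and Afp (0.37, adjusted p = 0.0351). Within set A alone, the Mest difference was 1.52 (adjusted p = 0.000865) and that of Gpc3 1.36 (0.00972). Within set B alone, where 639 genes passed, neither did: Mest had 0.74 (adjusted p = 0.0740) and Gpc3 1.20 (0.0518). Gpc3 lies on the X chromosome, and the sexes were not given. With 3 Y-linked genes, averaged per sample, as a covariate, the Gpc3 difference was 1.25 (adjusted p = 0.0168) and that of Mest 1.08 (0.000432). Relative to all samples, that average in set A lay between 1.51 and 1.91 in ATF7+/+_CD and between 1.44 and 1.76 in ATF7+/+_LPD. Each other group of set A held both low and high samples, as in WT_LPD (-2.89 to 1.56). Within set A, comparisons of ATF7+/+ with another label therefore cannot be told apart from this Y-linked difference.

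**Figure D2:**
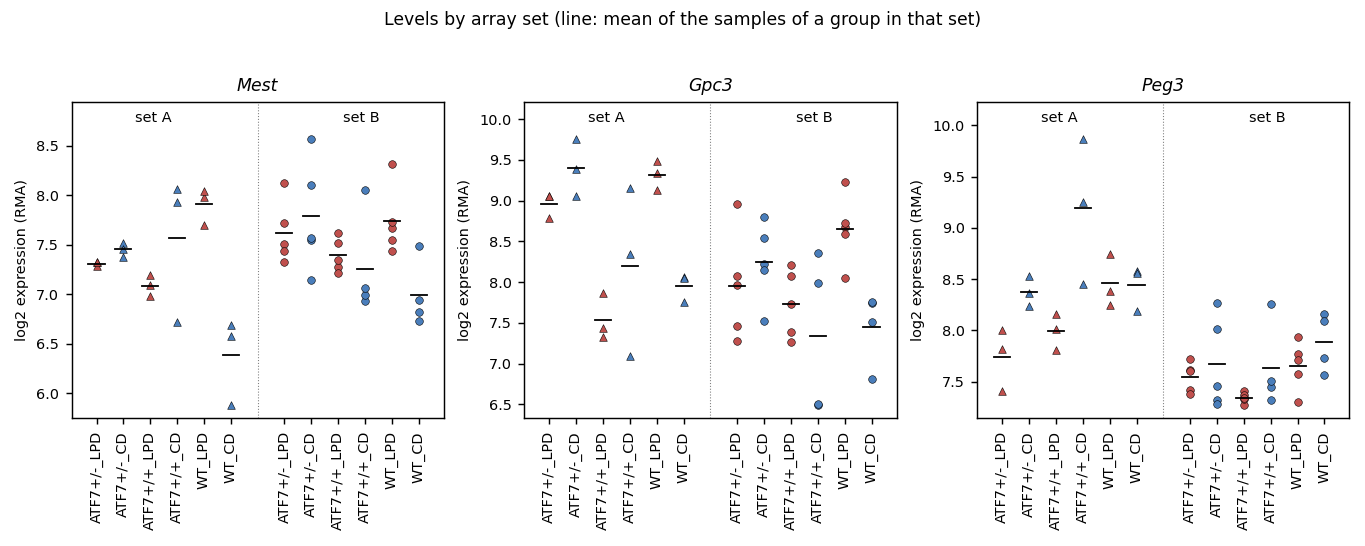
Log2 levels of Mest, Gpc3 and Peg3 by group, drawn apart for array set A (triangles, on the left) and array set B (circles, on the right), red for LPD and blue for CD; a bar is the mean of a group in that set. Peg3 is higher in set A in each of the 6 groups, and in set A Mest averages 7.91 in WT_LPD and 6.38 in WT_CD.

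In the other genotype labels no member passed in the diet comparison. In ATF7+/- offspring, where 0 of 13542 genes passed (0%; 178 at an unadjusted p under 0.05), all 9 member differences were negative, with a median of -0.19 against 0.00 over all genes, and none had an unadjusted p under 0.05. Mest had a median of 7.38 (7.28 to 8.12) in ATF7+/-_LPD, against 7.54 (7.14 to 8.57) in ATF7+/-_CD, a log2 difference of -0.16 (95% interval -0.55 to 0.23). Gpc3 ran from 7.28 to 9.05 in ATF7+/-_LPD, against 7.52 to 9.76 in ATF7+/-_CD, a difference of -0.35 (-0.99 to 0.28). The ranges of the diets overlapped for every member in this label, as they did for all but 1 of the 13542 genes (0.00738% separate).

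In ATF7+/+ offspring 1 gene passed (0.00738%), and it was no member; 8 of the 9 member differences were negative, with a median of -0.11. Peg3 had the largest of them: it lay between 7.27 and 8.16 (median 7.39) in ATF7+/+_LPD, against 7.32 to 9.87 (median 8.26) in ATF7+/+_CD. All 8 ATF7+/+_LPD samples lay below the ATF7+/+_CD median, and the 3 set A samples of ATF7+/+_CD were the highest of that group. The log2 difference of -0.71 ± 0.26 (SE) did not pass (adjusted p = 0.802). It was -1.20 (adjusted p = 0.0465) within set A alone, where 59 genes passed, and -0.29 (0.677) within set B alone, where 0 did. Mest differed by -0.11 (95% interval -0.52 to 0.29), Plagl1 by -0.28 (-0.53 to -0.03) and Igf2 by -0.30 (-0.60 to -0.01). Averaged over the 3 labels, 0 members and 109 genes (0.805%) passed in the diet comparison, most of them higher (0.687%). Peg3 had -0.40 (adjusted p = 0.283). With the array set as a block Peg3 passed (-0.37, adjusted p = 0.0326), 1 of 435 genes that did.

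**Figure D3:**
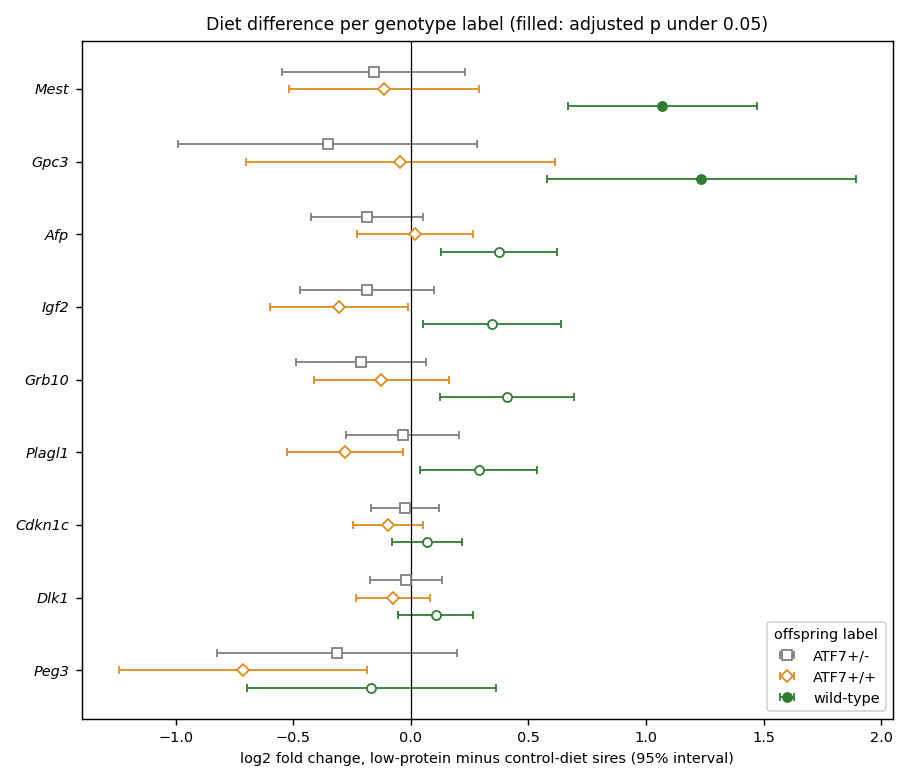
Log2 difference between the sire diets (LPD minus CD) of each member with its 95% interval, by genotype label; filled symbols passed at an adjusted p under 0.05. Only Mest (1.07) and Gpc3 (1.23) in wild-type offspring are filled.

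The test of the difference between labels bears on whether these diet differences were unlike. The diet difference of Mest was -0.16 in ATF7+/- offspring and 1.07 in wild-type offspring, a difference of -1.23 ± 0.28 (SE, limma, adjusted p = 0.0214); 86 genes passed in this test, 77 of them lower (0.569%) and the rest higher (0.0665%). The other 8 members were also negative here and did not pass: Gpc3 had -1.59 ± 0.45 (adjusted p = 0.102), Afp -0.56 ± 0.17 (0.130), Grb10 -0.62 ± 0.20 (0.155) and Igf2 -0.53 ± 0.20 (0.293). The Mest call was lost on leaving out WT_CD replicate 8 (adjusted p = 0.0524) and among set B arrays (-0.91, adjusted p = 0.197). Gpc3 (-1.62, adjusted p = 0.0151) and Grb10 (-0.63, adjusted p = 0.0492) passed with the array set as a block, beside 299 genes.

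Between ATF7+/+ and wild-type offspring, where 3 genes passed, all lower (0.0222%), no member passed and all 9 values were negative. The difference of the Mest diet differences was -1.18 ± 0.28 (SE, adjusted p = 0.0914), and that of Gpc3 was -1.28 ± 0.46 (0.405). With the array set as a block Mest passed (adjusted p = 0.0309), 1 of 51 genes that did. Between ATF7+/- and ATF7+/+ offspring 0 genes passed (0%; 380 at an unadjusted p under 0.05), and the member values ran from -0.31 for Gpc3 to 0.40 for Peg3. These tests share samples with each other and with the diet comparisons.

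At the same sire diet, the genotype labels also differed. Among offspring of control-diet sires, Mest was higher in ATF7+/- than in wild-type liver: its median was 7.54 (7.14 to 8.57) in ATF7+/-_CD, against 6.73 (5.88 to 7.49) in WT_CD. Only WT_CD replicate 3 reached into the ATF7+/-_CD range. The log2 difference was 0.93 ± 0.20 (SE, limma, adjusted p = 0.00657), and Mest was the 1 member of 9 to pass, beside 158 genes (1.17%) higher and 66 (0.487%) lower, 1.65% in all. Gpc3 had 1.01 ± 0.33 (adjusted p = 0.102) and Grb10 0.32 ± 0.14 (0.308). With the array set as a block Gpc3 passed (1.05, adjusted p = 0.0164), 1 of 822 genes that did. The Mest call was lost in set B alone (0.79, adjusted p = 0.0700), where 447 genes passed. It was also lost in a fit on the 2 groups only (adjusted p = 0.0847), where 69 did. Between ATF7+/+_CD and WT_CD no member passed, beside 47 of all genes (0.347%), 39 of them higher (0.288% of all genes) and 8 lower (0.0591% of all genes). Mest had 0.66 ± 0.21 (adjusted p = 0.161), with 1.19 (0.00327) among set A arrays and 0.26 (0.908) among set B arrays. In set A the ATF7+/+_CD samples were all high in Y-linked genes, while those of WT_CD were mixed. These comparisons rest on the same WT_CD samples as the wild-type diet comparison and are no independent evidence on them.

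Among offspring of low-protein sires, no gene passed between ATF7+/- and wild-type (0%; 377 at an unadjusted p under 0.05) or between ATF7+/+ and wild-type (0%; 1130). Over all samples, all 9 member values were negative in both comparisons, which share the WT_LPD samples. Dlk1, at -0.01 between ATF7+/+ and wild-type, turned to 0.02 after quantile normalization. Signs also turned within array sets. In set A Dlk1 averaged 7.20 in ATF7+/+_LPD and 7.01 in ATF7+/-_LPD, against 6.93 in WT_LPD. In set B Cdkn1c averaged 6.60 in ATF7+/-_LPD, against 6.54 in WT_LPD. Between ATF7+/+_LPD and WT_LPD, 7 members had an unadjusted p under 0.05. Gpc3 lay between 7.26 and 8.21 (median 7.59) in ATF7+/+_LPD, against 8.05 to 9.48 (median 8.93) in WT_LPD, so that only the upper end of the one range met the lower end of the other. Its log2 difference was -1.24 ± 0.31 (SE) and that of Grb10 was -0.54 ± 0.14, both with an adjusted p of 0.216. With the array set as a block Gpc3 passed (adjusted p = 0.0441), 1 of 10 genes that did. Its difference was -1.78 (0.00382) among set A arrays, where 1740 genes passed, and -0.92 (0.559) among set B arrays, where 0 passed. In set A all ATF7+/+ samples were high in Y-linked genes, while the other labels were mixed. Between ATF7+/- and ATF7+/+, 0 genes passed at either sire diet, but among set A arrays alone 1262 passed with control-diet and 1218 with low-protein sires. Over all samples Gpc3 had the largest member value in each, 0.67 (adjusted p = 0.724) with low-protein sires and 0.97 (0.450) with control-diet sires.

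Across the 6 groups, Mest was ordered WT_LPD (7.80), ATF7+/-_CD (7.66), ATF7+/-_LPD (7.50), ATF7+/+_CD (7.39), ATF7+/+_LPD (7.28) and WT_CD (6.73) by mean log2 level. The step of 0.54 at the low end, between ATF7+/+_LPD and WT_CD, was larger than the SD of both groups, which no other step was. For Gpc3 the order was WT_LPD (8.90), ATF7+/-_CD (8.68), ATF7+/-_LPD (8.33), ATF7+/+_CD (7.71), WT_CD (7.67) and ATF7+/+_LPD (7.66), with no step beyond the spread of both neighbours. WT_LPD had the highest mean of the 6 groups for Mest, Gpc3, Igf2, Grb10, Plagl1 and Afp. Over all 9 members, 2 of 45 steps between neighbouring groups exceeded both SDs, the other being Grb10 between ATF7+/-_CD (7.78) and ATF7+/-_LPD (7.57). The spread within a group was widest in ATF7+/+_CD for Gpc3 (SD 1.02), Peg3 (0.98), Mest (0.59), Igf2 (0.44), Grb10 (0.42) and Plagl1 (0.38). In that group replicates 1 and 2, both of set A, were among the highest 3 samples for each of these 6 genes. Replicate 2 also had the highest median of all arrays (log2 6.12), and its part in this spread was not tested.

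The members have neighbours and relatives, of which lists were compiled with earlier results of these data known. Of 30 other imprinted genes, 19 could be tested, and in the wild-type diet comparison 3 passed higher and 0 lower, with a list median of 0.04. These were Tfpi2, a protease inhibitor gene (log2 difference 0.66, adjusted p = 0.00274), Ndn, a paternally read gene of the Prader-Willi region (0.39, adjusted p = 0.00830), and Copg2 (0.37, adjusted p = 0.0272). Copg2 and Mest run towards each other and overlap at their ends in RefSeq, so their probe sets may read shared sequence. The Igf2 receptor gene Igf2r (0.01) and the noncoding RNA gene Meg3 of the Dlk1 locus (-0.08) did not pass. In ATF7+/-_CD against WT_CD, Tfpi2 (0.64, adjusted p = 0.00657) and Ndn (0.39, adjusted p = 0.0129) were again higher, on the same WT_CD samples.

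Of the IGF axis, 16 of 18 listed genes were tested and 1 passed in the wild-type diet comparison: Igf2bp3, a fetal RNA-binding protein that binds Igf2 transcripts, was higher in WT_LPD (0.46 ± 0.09 SE, adjusted p = 0.00223). Igf1 had 0.24 (adjusted p = 0.0933), the growth hormone receptor Ghr 0.21 (0.0892), Igfbp3 0.55 (0.128), the acid-labile subunit Igfals 0.68 (0.112) and Igf1r -0.09 (0.683). Of 10 other genes high in fetal or neonatal liver 1 passed, the neonatal cytochrome Cyp3a16 (2.45 ± 0.68 SE, adjusted p = 0.0310), and 9 of the 10 values were positive with a median of 0.24. Of 4 other glypicans Gpc6 passed (0.56, adjusted p = 0.0182), while Gpc4, which neighbours Gpc3 on the X chromosome, had 0.25 (0.293). Among 10 regulators of Afp none passed; Zhx2 had -0.10 (adjusted p = 0.812) and Zbtb20, a repressor of Afp, -0.14 (0.627). Next to Afp on chromosome 5, the albumin gene Alb had -0.04 (adjusted p = 0.818) and Afm 0.37 (0.242).

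Markers of other cells moved beside the members. Of 8 proliferation markers 7 were higher in WT_LPD than in WT_CD and none lower, with a median of 1.20; Mki67 had 1.55 (adjusted p = 0.00227) and Ccna2 1.59 (0.00244). The mean of the list per sample, relative to all samples, lay between -0.05 and 1.12 in WT_LPD and between -1.33 and 0.80 in WT_CD. Of 12 stellate cell and fibroblast markers 3 were higher, Acta2 (0.67), Lrat (0.53) and Reln (0.42), and their list mean lay between -0.04 and 0.23 in WT_LPD and between -0.54 and 0.07 in WT_CD. Of 6 endothelial markers Cdh5 was higher (0.34, adjusted p = 0.0105), and of 3 erythroid markers Alas2 (0.84, adjusted p = 0.0196). None of the 6 hepatocyte, 5 Kupffer cell, 3 cholangiocyte, 1 exocrine pancreas and 3 Y-linked markers passed. For the Y-linked genes this shows no balance of the sexes, as their wide spread within groups leaves the test little power. Their list mean ran from -2.89 to 1.56 in WT_LPD and from -2.76 to 1.35 in WT_CD. In the test of the difference between ATF7+/- and wild-type offspring, 4 proliferation markers and Acta2 (-0.93, adjusted p = 0.0396) passed lower beside Mest. The part of these cells in the members' differences was not tested.

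**Figure D4:**
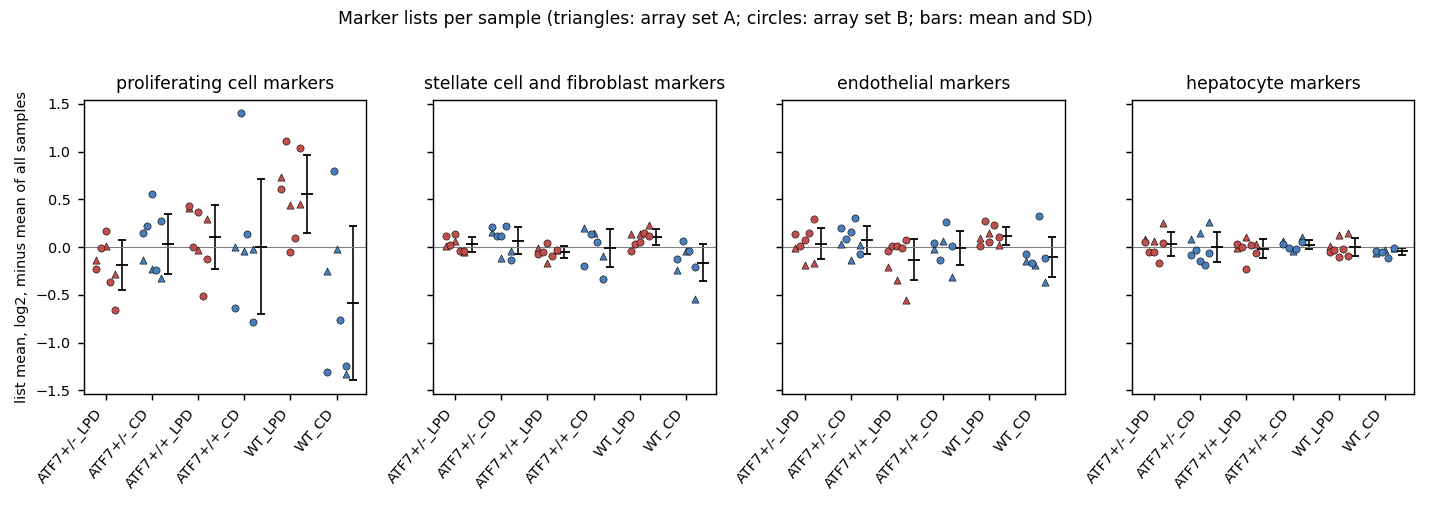
Mean log2 level of 4 marker lists per sample, relative to the mean of all samples, by group, red for LPD and blue for CD; triangles are samples of array set A, circles of set B, and bars give the mean and SD. The proliferation list averages 0.56 in WT_LPD and -0.59 in WT_CD, and the hepatocyte list 0.00 and -0.04.

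Beyond the group means, some pairs of members varied together in set B. Deviations from group means were correlated within each array set, in 180 relations between members or between a member and a cell type list, with permutation of samples within groups and adjustment over the 180. Of 36 pairs of members, 21 had a positive r in both sets, 3 passed in set B (n = 28), 0 in set A (n = 18) and 0 in both. How often pairs of other genes do so was not computed. Grb10 and Gpc3 had r = 0.781 and rho = 0.820 in set B (adjusted permutation p = 0.0036 for each, r = 0.746 without the 2 farthest samples). In set A they had r = 0.739 and rho = 0.514 (adjusted permutation p = 0.235 and 0.301, r = 0.615 without the 2 farthest). Cdkn1c and Gpc3 had r = 0.601 and rho = 0.611 in set B (adjusted permutation p = 0.0168 and 0.0540, r = 0.585 without the 2 farthest), and r = -0.0576 and rho = -0.229 in set A (adjusted permutation p = 0.869 and 0.651). Mest and Igf2 had r = 0.615 and rho = 0.549 in set B (adjusted permutation p = 0.0436 and 0.0846, r = 0.521 without the 2 farthest). In set A they had r = 0.397 and rho = 0.108 (adjusted permutation p = 0.790 and 0.856, r = 0.0561 without the 2 farthest). Plagl1 and the stellate list had r = 0.712 and rho = 0.708 in set B (adjusted permutation p = 0.0168 and 0.0468, r = 0.670 without the 2 farthest). In set A the same pair had r = 0.619 (adjusted permutation p = 0.280). The other list means had no relation with a member that passed. Mest and the endothelial list had r = 0.721 in set A and 0.656 in set B (adjusted permutation p = 0.160 and 0.0612), and Mest and the stellate list 0.726 and 0.484 (adjusted permutation p = 0.175 and 0.245). Mest and the proliferation list had r = 0.499 in set A and 0.0639 in set B (adjusted permutation p = 0.182 and 0.894).

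The genes whose deviations were most like those of a member were chosen by the mean of r over set A and set B, as a description. For Mest these were the guanylate cyclase subunit Gucy1a1 (mean r 0.801), the cyclophilin Ppic (0.799) and the fatty acid binding protein Fabp4 (0.770). For Gpc3 they were the betaglycan gene Tgfbr3 (0.793), Slc13a3 (0.727) and the stellate cell gene Reln (0.701), and Reln also led for Grb10 (0.725), ahead of Phactr2 (0.719) and the proteoglycan Bgn (0.712). For Afp they were Anxa2 (0.803), Elovl7 (0.793) and Acbd3 (0.783), and for Plagl1 Ddx39b (0.753), Zfp207 (0.752) and Lpl (0.751). Igf2 had Arhgap31 (0.662), Ints6l (0.652) and C1qtnf6 (0.649), and Peg3 had Rbm39 (0.684), the hepatocyte growth factor gene Hgf (0.679) and Nbea (0.673). The closest genes to Dlk1 (Nos1, Hvcn1 and Wfdc15a, 0.619 to 0.616) and to Cdkn1c (Gpt, Ahr and Dusp14, 0.614 to 0.597) had lower values.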

How the data were processed

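Liver RNA of 48 F1 mice in 6 groups, taken from the labels, was read on Affymetrix arrays. The deposited log2 values came from RMA, run by the authors in Expression Console per the submitters' processing notes; the annotation version, and whether all arrays were normalized together, are not given in the sources used here. The table held 35556 probe sets, and the values were used as deposited.

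Probe sets with 1 symbol and a mean at or above the 40th percentile were kept, with the highest mean for each gene. Group means were fitted with limma 3.58.1 in R 4.3.3, in 13 contrasts, each the first named group minus the second; passing meant a two-sided p, adjusted after Benjamini-Hochberg over 13542 genes, under 0.05. Pairs of arrays with a ratio of spread (variable over stable genes) under 1.5 were averaged, which left 46 samples; the ratio was 1.49 and 1.36 in these 2 pairs and 2.28 to 6.41 in the others. Array sets were read from component 1 of a principal component analysis on 5591 unannotated probe sets. The members and the gene lists were chosen with earlier results of these data known. All 10 members were named, from each list up to 6 genes that passed, and the 3 genes most like each member; other list genes printed were chosen after their values were seen.

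Deviations from group means in samples with the same number under both diets had r from 0.18 to 0.735 in ATF7+/- and 0.303 to 0.672 in ATF7+/+, but -0.467 to 0.503 in wild-type; within array sets r was -0.0377 to 0.375, -0.156 to 0.347 and -0.235 to 0.0965. Alternatives changed the filter, normalization, probe set rule, prior, array weights, groups fitted, replicate block, Y-linked covariate, array set or samples used. Correlations used 100000 permutations. The steps were tested on simulated data. Figures were drawn with matplotlib 3.10.9.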

Additional observations from a re-analysis of the deposited data

Results flagged for a closer look

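In ATF7+/+_CD, Cdkn1c read 6.65 in replicate 6, apart from the other 6 samples, which lay between 6.42 and 6.49. It was the only sample to stand apart in this way among 54 sets of values, 1 for each measured member in each group. Chance flags about 1 in 20 groups. Replicate 6 is a sample of array set B, and the group mean of Cdkn1c was 6.49 with it.

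The diet difference of Mest was unlike between the labels: it was -0.16 in ATF7+/- offspring and 1.07 in wild-type offspring, a difference of -1.23 (limma, adjusted p = 0.0214). It was -1.67 (adjusted p = 0.0193) in array set A alone and -0.91 (0.197) in array set B alone. In the same test 4 proliferation markers and the stellate list gene Acta2 passed lower. Beyond the group means, Mest had r = 0.499 in set A and 0.0639 in set B with the proliferation list. With the endothelial list it had 0.721 and 0.656, and none of these relations passed. Whether cells of these types have a part in the Mest difference was not tested.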

How the results depend on the processing

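The members that passed numbered 2 in the wild-type diet comparison: 1 with array weights, 4 with the array set as a block, alone or with the Y-linked covariate, 0 in set B alone, and 1 to 3 with 1 sample left out (1 without WT_CD replicate 3). The 1 member that passed between the diet differences of ATF7+/- and wild-type became 2 with the replicate block, 3 with the replicate block within labels, 3 with the array-set block, 4 with that block and the covariate, 2 in set A alone, 0 in set B alone, and 0 to 2 with 1 sample left out (0 without WT_CD replicate 8; 2 without WT_CD replicate 2 or ATF7+/-_CD replicate 8). In ATF7+/-_CD against WT_CD the 1 became 0 on the 2 groups alone or in set B alone, 2 with the replicate block, with the array-set block, alone or with the covariate, and in set A alone, and 1 to 2 with 1 sample left out. Elsewhere 0 members passed, and these alternatives changed that. The array-set block, alone or with the covariate, gave 1 member in the averaged diet comparison, in the difference of the diet differences of ATF7+/+ and wild-type, and in ATF7+/+_LPD against WT_LPD. The last had 1 on the 2 groups alone, and ATF7+/-_CD against ATF7+/+_CD had 1 with array weights. In set A alone the counts were 1 for the averaged and the ATF7+/+ diet comparison, 3 for the difference of diet differences of ATF7+/+ and wild-type, 4 for ATF7+/+_CD against WT_CD, 3 for ATF7+/+_LPD against WT_LPD, and for ATF7+/- against ATF7+/+ 2 with control-diet and 1 with low-protein sires. In these last 4 comparisons 2645, 1740, 1262 and 1218 of the 13542 genes passed in set A alone. All 4 compare ATF7+/+ with another label, and in set A every ATF7+/+ sample was high in Y-linked genes while the others were mixed. The difference of diet differences of ATF7+/+ and wild-type had 0 to 1 with 1 sample left out (1, Mest, without ATF7+/+_CD replicate 3 or 5). The causes were not tested.

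The replicate block, on numbers that did not pair the wild-type samples, let Grb10 pass in the wild-type diet comparison (adjusted p = 0.0395; 0.0230 within labels). It let Gpc3 pass in ATF7+/-_CD against WT_CD (0.0232) and in the difference of diet differences of ATF7+/- and wild-type (0.0190; 0.0117 within labels, where Grb10 passed too, 0.0427). It changed no other call of a member. Over all members and alternatives, 4203 fitted values kept their direction or never passed, 8 no longer passed, 52 newly passed, and none that passed changed sign.

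The count of all genes moved more: 487 in the wild-type diet comparison became 139 on the 2 groups alone and 1254 with the array-set block. It was 2118 in set A alone, 639 in set B alone, and 219 to 589 with 1 sample left out, lowest without WT_CD replicate 8. For the difference of diet differences of ATF7+/- and wild-type, 86 became 178 with array weights, 299 with the block, 280 in set A and 181 in set B. In ATF7+/-_CD against WT_CD, 224 became 69 on the 2 groups alone and 822 with the block. The counts for ATF7+/+ against wild-type ran from 1 to 2645 (main 47, control-diet sires) and from 0 to 417 (main 3, diet differences), and the averaged diet count from 70 to 1478 (main 109). Where 0 genes passed, ATF7+/+_LPD against WT_LPD had 10 with the array-set block or on the 2 groups alone, and ATF7+/-_CD against ATF7+/+_CD had 13 with array weights and 10 with the block. With the filter at the 60th percentile Afp, Igf2 and Cdkn1c were not tested. Arrays give no count depth, no probe background is used here, and the number of arrays sets the precision. Of the members Afp, with a mean of 5.86, lay nearest to the filter.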

Other observations

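The mean log2 level of the 9 members per sample, relative to all samples, averaged -0.04 ± 0.15 in ATF7+/-_LPD and 0.13 ± 0.19 in ATF7+/-_CD, -0.19 ± 0.11 in ATF7+/+_LPD and 0.00 ± 0.39 in ATF7+/+_CD, and 0.24 ± 0.16 in WT_LPD and -0.17 ± 0.10 in WT_CD (SD, n = 8 or, in ATF7+/+_CD and WT_CD, 7). The list of other genes high in fetal or neonatal liver averaged 0.02 in ATF7+/-_LPD and 0.17 in ATF7+/-_CD, -0.19 in ATF7+/+_LPD and -0.09 in ATF7+/+_CD, and 0.25 in WT_LPD and -0.20 in WT_CD. Both lists were highest in WT_LPD, but so were the proliferation (0.56), stellate (0.10), endothelial (0.12) and erythroid (0.23) marker lists. The lists of other glypicans, the IGF axis and other imprinted genes were highest there too, and the remaining lists were highest in other groups. The regulators of Afp averaged within 0.06 of 0 in every group.

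Of the IGF axis, Ghr, the growth hormone receptor, was higher in ATF7+/-_CD than in WT_CD (log2 difference 0.30, limma, adjusted p = 0.0155), and it was the only gene of that list to pass in that comparison. In the same comparison the endothelial gene Cdh5 (0.38, adjusted p = 0.00634) and the smooth muscle actin gene Acta2 (0.79, adjusted p = 0.00505) were higher, beside Mest. No gene of the lists passed in the diet comparison within ATF7+/- or within ATF7+/+ offspring.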
